A study of Mus musculus with 25 samples.

Results

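The genes described here encode the pyruvate dehydrogenase complex and the enzymes that switch it on and off. They are the kinases Pdk1, Pdk2, Pdk3 and Pdk4, the phosphatase subunits Pdp1 and Pdp2, and the structural genes Pdha1, Pdhb, Dlat and Pdhx. These 10 genes were taken by symbol from a table of 55487 mouse genes, and all 10 were among the 19155 genes with enough counts to be tested. Their RNA was measured in 25 libraries of whole Achilles tendon from mice aged 3 months.

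The libraries fall into 4 groups of genotype and activity. The AMPKcKO group, written cKO here, had 6 wheel-running libraries (3 male, 3 female) and 6 cage-activity libraries (3 male, 3 female). The wild-type (WT) group had 6 wheel-running libraries (3 male, 3 female) and 7 cage-activity libraries (3 male, 4 female). In the library names, cKO cage male replicate 3 and WT cage female replicate 4 carry SNEL, where all others carry MK. What these letters stand for is not stated. AMPKcKO is a conditional knock-out, and the title of the series points to AMPKα1, encoded by Prkaa1, which is a catalytic subunit of AMPK, the kinase that senses low cellular energy. The promoter that drives Cre, the deleted part of Prkaa1 and the duration of wheel running are not given in the sources used here. No label says whether the libraries of a group came from separate animals, so p-values measure the spread between these libraries.

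The pyruvate dehydrogenase complex sits in the mitochondrial matrix and turns pyruvate into acetyl-CoA, which joins glycolysis to the citric acid cycle. Its E1 component, built from Pdha1 and Pdhb, is switched off when a kinase phosphorylates it and switched on again when a phosphatase removes the phosphate. Pdk4 is the kinase isoform best known for rising in muscle during fasting and fat use, and Pdk2 is the isoform found most widely across tissues. Tendon is sparsely supplied with blood vessels, while the skeletal muscle joined to the Achilles tendon is rich in mitochondria.

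The libraries held 13193228 to 45724243 counts. Prkaa1 averaged 18.6 ± 2.32 CPM (counts scaled to library size) in cKO running, 17.5 ± 2.38 CPM in cKO cage, 23.1 ± 6.05 CPM in WT running and 23.0 ± 5.94 CPM in WT cage libraries (SD, n = 6, 6, 6 and 7), and the groups overlapped. In edgeR's quasi-likelihood test its log2 difference between cKO and WT was -0.36 ± 0.12 (SE, mean of both activities, adjusted p = 0.981). Cre transcripts were counted in 11 of the 12 cKO libraries and in none of the 13 WT libraries. The cKO library without Cre was cKO cage female replicate 3. All 14 tendon cell markers on the list used were detected, led by Col1a1. All 25 skeletal muscle genes were detected too, and they took 1.78% to 8.42% of a library's counts. WT running female replicate 2 and WT running male replicate 3 were treated as standing apart from the other libraries. No measure of this is given here. The Pdk4 value for running and the number of members called for running are also given without them.

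Promoter sequence is shown for the kinases that dominate the RNA pool, because only 1 of them, Pdk4, passed the test for running. Pdk4 lies on the minus strand at chr6:5483351-5496309 (GRCm38) and Pdk2 on the minus strand at chr11:95026258-95041354. The stretches below come from RefSeq (GRCm38.p6), on the minus strand at chr6:5496310-5496528 and chr11:95041372-95041621. Both end upstream of every annotated start, and capitals mark matches to CACGTG, to CCAAT, which reads as ATTGG where it lies on the other strand, and to the motif ATAAAA.
Pdk4: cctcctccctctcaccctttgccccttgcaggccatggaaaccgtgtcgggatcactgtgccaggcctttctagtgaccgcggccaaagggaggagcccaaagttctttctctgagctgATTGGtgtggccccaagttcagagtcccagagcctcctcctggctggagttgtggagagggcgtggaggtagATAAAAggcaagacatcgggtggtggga
Pdk2: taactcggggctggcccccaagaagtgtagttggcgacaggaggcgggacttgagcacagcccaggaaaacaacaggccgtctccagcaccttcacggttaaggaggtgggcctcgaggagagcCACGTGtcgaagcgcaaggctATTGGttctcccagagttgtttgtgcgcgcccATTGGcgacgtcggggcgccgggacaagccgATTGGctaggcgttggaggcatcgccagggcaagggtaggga
The Pdk4 stretch held 1 inverted CCAAT, at bases -131 to -127 from the RefSeq start, and 1 ATAAAA at -59 to -54. The Pdk2 stretch held CACGTG at -126 to -121 and 3 inverted copies of the CCAAT motif. This motif and ATAAAA were added to the search after the Pdk4 promoter had been read, and the Pdk2 stretch was chosen after the values were seen. Of 32851 mouse promoter windows, from 250 bases before to 50 bases after a start and searched on both strands, 37.4% held CCAAT, 18.5% held ATAAAA and 7.15% held CACGTG. Of 6 further motifs searched, the nuclear receptor motif AGGTCA was in 16.3% of windows and the forkhead motif TGTTTAC in 3.65%. ACGTG, which CACGTG contains, was in 19.6%. TCAAGGTCA was in 0.423%, the direct repeat bound by PPAR with RXR in 0.0396% and the palindrome bound by the glucocorticoid receptor in 0.00913%. None of these 6 was found in the Pdk4 window. A promoter was matched for 9 of the 10 genes, and the gene without one was Pdp1. CACGTG was in the windows of Pdk2 and Pdp2, ACGTG alone in those of Pdhb and Pdk3, and ATAAAA in that of Pdk4.

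Pdk4 was the 1 gene of the 10 whose RNA fell in running tendons, and its level varied more widely between libraries than that of any other member. Its level in cKO running libraries was 39.6 CPM at the lowest, 187 at the median and 274 at the highest, against 268, 484 and 1756 CPM in cKO cage libraries. In WT running libraries it was 151 CPM at the lowest, 214 at the median and 530 at the highest, against 272, 562 and 1062 CPM in WT cage libraries. Of the 12 running libraries, 9 lay below every cage library, and 7 of the 13 cage libraries lay above every running library, while the rest overlapped. The mean was 234 ± 133 CPM in running libraries and 646 ± 419 CPM in cage libraries (SD, n = 12 and 13). With both genotypes averaged, the log2 fold change for running against cage was -1.44 ± 0.33 (SE, adjusted p = 0.024 in edgeR's quasi-likelihood test). In that comparison 1.43% of the 19155 genes were called at an adjusted p under 0.05, and 0.814% were called lower in runners. So 1 of 10 members was called, where 5 had an unadjusted p under 0.05, as did 2849 of the 19155 genes. DESeq2 called 2 members (Pdk4 and Pdp2), and limma-voom called 3 (Pdk4, Pdp2 and Pdha1). These tools also called more of the 19155 genes, 637 by DESeq2 and 912 by limma-voom, against 273 by edgeR.

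**Figure D1:**
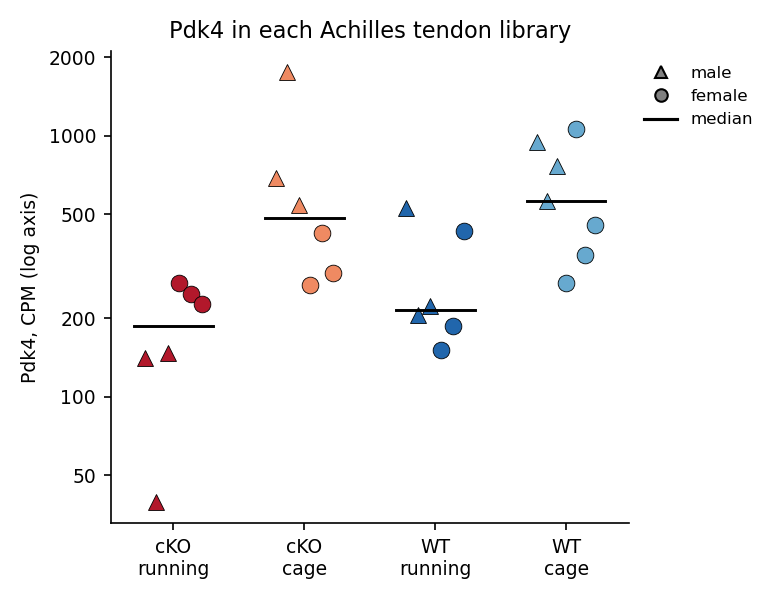
Pdk4 in CPM on a log axis, in each of the 25 libraries, by genotype and activity; triangles are male, circles are female and bars are group medians. Medians were 187 CPM in cKO running, 484 in cKO cage, 214 in WT running and 562 in WT cage libraries, and each running group overlaps its cage group.

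Within a single genotype Pdk4 did not pass the test. Its log2 fold change for running was -1.74 ± 0.48 in cKO (adjusted p = 0.16) and -1.14 ± 0.44 in WT (adjusted p = 0.373). The difference between these responses, the genotype-by-running interaction, was -0.60 ± 0.64 (adjusted p = 0.791). The share of all genes called was 0.0418% for running in cKO, 0.131% for running in WT and 0% for the interaction. By edgeR, 0 of the 10 members were called for running in cKO. An unadjusted p under 0.05 was reached there by 6 members and by 2596 of the 19155 genes. DESeq2 called 2 there (Pdk4 and Pdha1) and limma-voom called 3 (Pdk4, Pdha1 and Dlat). Of the 19155 genes, DESeq2 called 208 there and limma-voom 384, against 8 by edgeR. For running in WT, all 3 tools called 0 of 10. The unadjusted p of edgeR was under 0.05 for 3 (Pdk4, Pdp1 and Pdp2), and for 1866 of the 19155 genes.

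The Pdk4 call is given here beside the muscle, mitochondrial and reporter RNA of the libraries. The muscle share averaged 4.59% ± 1.8 in cKO running, 5.56% ± 1.01 in cKO cage, 6.56% ± 1.46 in WT running and 5.42% ± 1.54 in WT cage libraries (SD, n = 6, 6, 6 and 7). With the muscle genes as a covariate, the Pdk4 log2 fold change for running was -1.05 ± 0.22 (adjusted p = 0.00711). In that fit it was -1.07 ± 0.32 in cKO (adjusted p = 0.302) and -1.02 ± 0.28 in WT (adjusted p = 0.0625). The mitochondrial rRNA share was 21.3% ± 6.08, 25.4% ± 3.84, 20.4% ± 3.05 and 23.6% ± 3.97 in the same order of groups. Its mean was lower in runners of both genotypes, but the ranges overlapped and the difference was not tested. With this share as the covariate, the fold change was -1.01 ± 0.33 and no longer called (adjusted p = 0.26). eGFP transcripts above 10 CPM were carried by 6 of 6, 2 of 6, 1 of 6 and 0 of 7 libraries in that order, and an eGFP covariate also ended the call (-1.14 ± 0.38, adjusted p = 0.351). Without the pair of WT running libraries that stand apart, the value was -1.34 ± 0.36 (adjusted p = 0.0677). With the SNEL or MK library name as a covariate it was -1.50 ± 0.34 (adjusted p = 0.0319). Without the SNEL libraries, both of cage activity, it was -1.49 ± 0.35 (adjusted p = 0.0439). Leaving out WT cage female replicate 2 gave an adjusted p of 0.0581 and leaving out WT running male replicate 2, the 1 WT library with eGFP (119 CPM, and no Cre counts), gave 0.0586, while the 23 other single omissions kept the call. The fold change stayed negative in all 47 fits.

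The gap in Pdk4 between activities was wider in male than in female libraries of the cKO genotype, and close in size between the sexes in WT. The sex difference did not pass the test. The male cKO running libraries held 141, 39.6 and 147 CPM, and the male cKO cage libraries 688, 1756 and 542 CPM. The female cKO running libraries held 274, 248 and 227 CPM, and the female cKO cage libraries 268, 426 and 298 CPM. So the male cKO groups were fully separate and the female ones overlapped. The male WT running libraries held 530, 206 and 223 CPM, against 949, 562 and 769 CPM in male WT cage libraries. The female WT running libraries held 151, 187 and 434 CPM, against 272, 1062, 350 and 455 CPM in female WT cage libraries. In WT, too, the male groups were separate and the female ones overlapped. The log2 fold change for running in cKO was -3.18 ± 0.58 with males alone (adjusted p = 0.0549) and -0.40 ± 0.46 with females alone (adjusted p = 1). In WT it was -1.25 ± 0.54 with males alone (adjusted p = 0.785) and -1.04 ± 0.44 with females alone (adjusted p = 0.538). Whether the sex difference itself differs between the genotypes was not tested. With males alone, the fold change as the mean of both genotypes was -2.21 ± 0.39 (adjusted p = 0.0256), and with females alone it was -0.72 ± 0.32 (adjusted p = 0.565). The sex-by-running interaction itself was -1.49 ± 0.53 for Pdk4, with an unadjusted p of 0.00952 and an adjusted p of 0.37, so it did not pass. For that interaction 0% of all genes were called. Among the members 0 were called by edgeR, and DESeq2 and limma-voom called 0. An unadjusted p under 0.05 was reached by 3 (Pdk1, Pdk3 and Pdk4), and by 2336 of the 19155 genes. The Pdk1 interaction was -0.91 ± 0.35 (adjusted p = 0.374), and that of Pdk3 was 0.67 ± 0.32 (adjusted p = 0.407). Male against female, averaged over activity and genotype, Pdk4 differed by 0.32 ± 0.33 (adjusted p = 0.816).

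Pdk2, the kinase next in abundance, did not pass the test for running. Its level was 53.9 CPM at the lowest, 145 at the median and 177 at the highest in cKO running libraries, against 127, 194 and 294 CPM in cKO cage libraries. In WT running libraries it was 122, 186 and 291 CPM, against 61.1, 184 and 201 CPM in WT cage libraries. All 4 groups overlapped. The log2 fold change for running was -0.52 ± 0.28 in cKO (adjusted p = 0.407), 0.31 ± 0.27 in WT (adjusted p = 0.761) and -0.11 ± 0.19 as the mean of both (adjusted p = 0.849). The interaction for Pdk2 was -0.83 ± 0.38 (adjusted p = 0.672). With the muscle covariate, the Pdk2 value for running was -0.10 ± 0.14 in cKO (adjusted p = 0.951) and 0.44 ± 0.13 in WT (adjusted p = 0.0781).

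Pdk1, the kinase isoform induced in low oxygen in many cells, ranged from 27.6 to 110 CPM in running libraries and from 30.3 to 132 CPM in cage libraries. Its log2 fold change for running was -0.42 ± 0.27 in cKO (adjusted p = 0.502) and 0.15 ± 0.26 in WT (adjusted p = 0.903). Pdk3 was scarce, at 2.01 to 5.94 CPM in running libraries and 2.67 to 6.57 CPM in cage libraries, on 47 to 371 counts per library. Its mean log2 fold change for running was 0.17 ± 0.16 (adjusted p = 0.676).

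Because Pdk4 differed between activities and Pdk2 did so by less than its error, the make-up of the kinase pool was read per length, as the share of the summed FPKM of the 4 kinases. Pdk4 made up 37.6% ± 9.09 of the pool in cKO running and 57.8% ± 11.3 in cKO cage libraries, and 39.9% ± 8.28 in WT running and 63.0% ± 11.1 in WT cage libraries (SD, n = 6, 6, 6 and 7). Pdk2 made up 49.4% ± 6.72, 34.5% ± 9.41, 49.1% ± 6.07 and 29.1% ± 8.12 in the same order. Over both genotypes, Pdk4 took 25.7% to 49.6% of the pool in running libraries and 40.0% to 77.6% in cage libraries. Pdk4 stood above Pdk2 in FPKM in 3 of 12 running libraries and in 12 of 13 cage libraries. These shares restate the Pdk4 difference on another scale and are given without a test. Summed kinase FPKM over Pdha1 FPKM was 1.54 ± 0.4 in cKO running, 2.00 ± 0.706 in cKO cage, 1.77 ± 0.279 in WT running and 2.21 ± 0.57 in WT cage libraries.

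**Figure D2:**
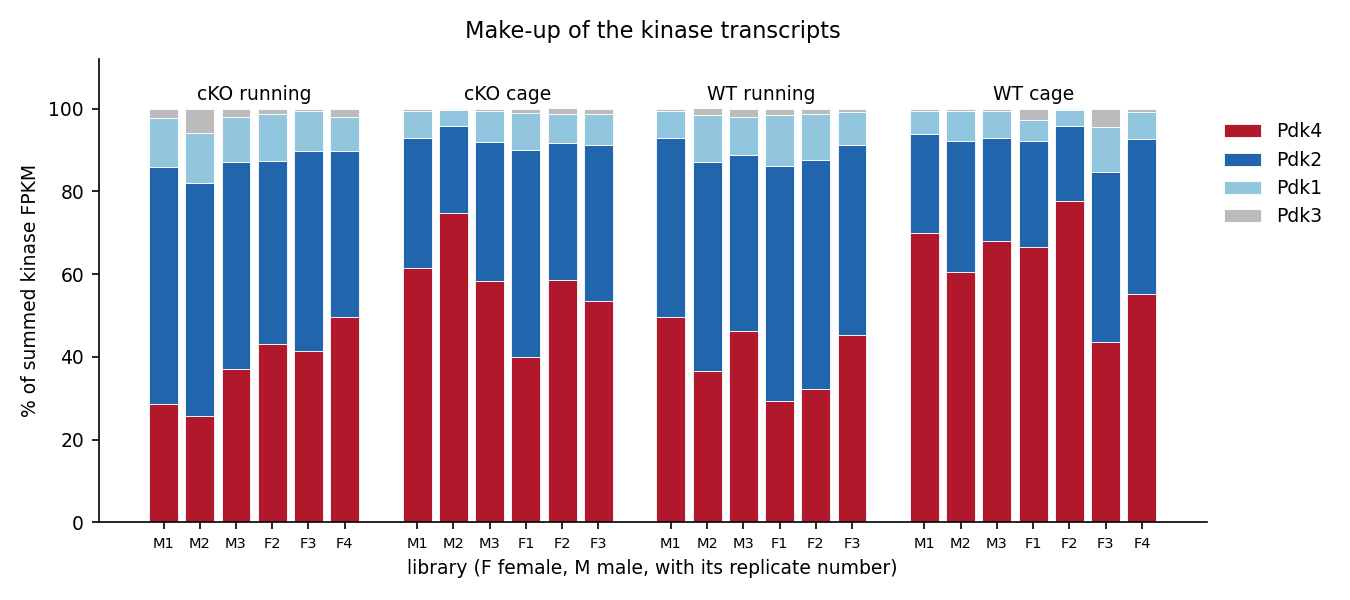
Share of each kinase, in percent of the summed FPKM of Pdk1, Pdk2, Pdk3 and Pdk4, with 1 bar per library, grouped by genotype and activity. The Pdk4 segment averages 37.6% in cKO running, 57.8% in cKO cage, 39.9% in WT running and 63.0% in WT cage libraries.

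Pdp1 and Pdp2 encode the catalytic subunits of the phosphatase that reactivates the complex. As the mean of both genotypes, Pdp2 had the most negative value for running after Pdk4, and its values in cKO and WT lay within their errors of each other. In cKO alone, Pdha1 and Dlat were more negative. It was 4.14 CPM at the lowest, 5.86 at the median and 9.7 at the highest in cKO running libraries, against 6.54, 9.14 and 14.6 CPM in cKO cage libraries. In WT running libraries it was 2.81, 5.32 and 8.74 CPM, against 5.78, 7.11 and 12.7 CPM in WT cage libraries. Of the 12 running libraries, 6 lay below every cage library. The log2 fold change was -0.59 ± 0.25 in cKO (adjusted p = 0.305), -0.58 ± 0.24 in WT (adjusted p = 0.431) and -0.58 ± 0.18 as the mean of both, which did not pass in edgeR (adjusted p = 0.101). DESeq2 gave an adjusted p of 0.0348 and limma-voom 0.0471 for Pdp2. Pdp2 was low, at 55 to 419 counts per library, and it did not follow the muscle genes.

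Pdp1 had a positive value for running in WT, which did not pass the test. It was 42.3 CPM at the lowest, 45.3 at the median and 75.7 at the highest in WT running libraries, against 24.8, 37.4 and 47.8 CPM in WT cage libraries, and the groups overlapped. The log2 fold change was -0.11 ± 0.18 in cKO (adjusted p = 0.832) and 0.47 ± 0.17 in WT (adjusted p = 0.351). The Pdp1 interaction was -0.58 ± 0.25 (adjusted p = 0.672). With the muscle covariate, Pdp1 was called higher in WT runners (0.51 ± 0.13, adjusted p = 0.0357). In that fit 332 genes were called for running in WT, against 25 without the covariate.

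**Figure D3:**
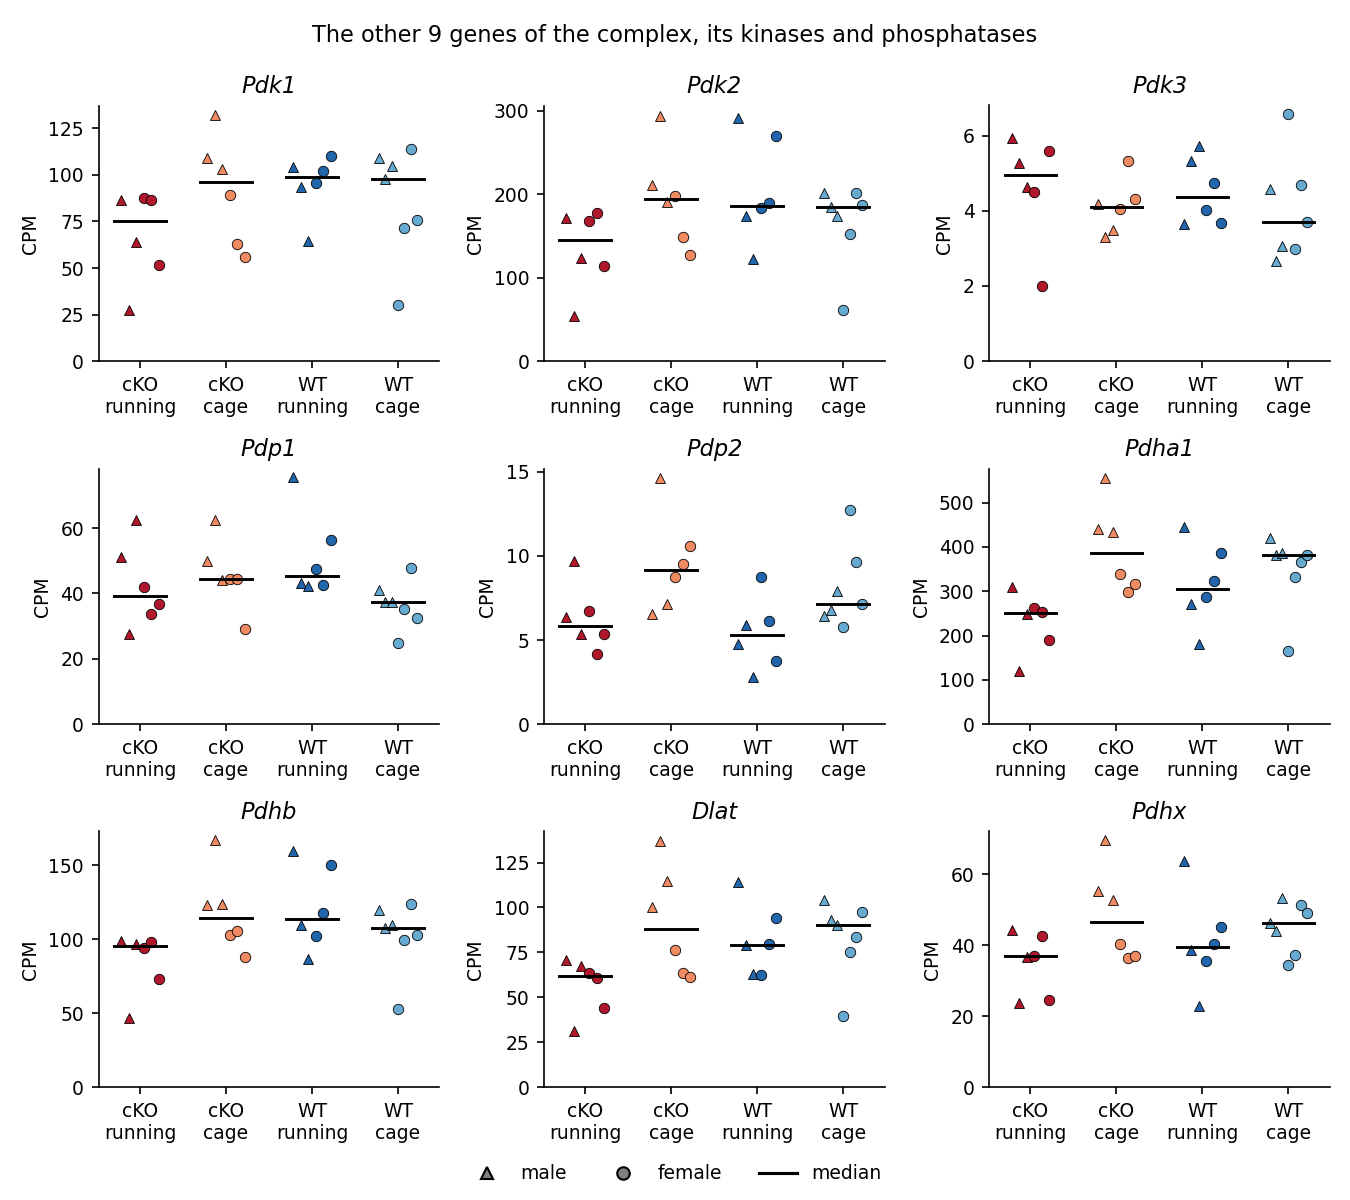
CPM of the other 9 genes in each library, by genotype and activity; each panel has its own linear axis from 0, triangles are male, circles are female and bars are group medians. The groups overlap in every panel, and Pdp2 medians are 5.86 in cKO running, 9.14 in cKO cage, 5.32 in WT running and 7.11 CPM in WT cage libraries.

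The structural genes were lower in cKO runners than in cKO cage tendons, by amounts that did not pass the test, and lay close to 0 in WT. With the muscle covariate, the cKO values were smaller and none was called. They were -0.42 ± 0.13 for Pdha1, -0.16 ± 0.10 for Pdhb, -0.35 ± 0.12 for Dlat and -0.19 ± 0.12 for Pdhx. Pdha1 encodes the E1 alpha subunit that the kinases phosphorylate. It was 120 CPM at the lowest, 251 at the median and 310 at the highest in cKO running libraries, against 299, 385 and 555 CPM in cKO cage libraries, so only the ends of the ranges overlapped. In WT running libraries it was 180, 305 and 444 CPM, against 166, 382 and 420 CPM in WT cage libraries. Its log2 fold change for running was -0.76 ± 0.23 in cKO (adjusted p = 0.189), -0.14 ± 0.22 in WT (adjusted p = 0.89) and -0.45 ± 0.16 as the mean of both (adjusted p = 0.171). Dlat encodes the E2 acetyltransferase core. It was 31.1, 62.1 and 70.5 CPM in cKO running libraries, against 61.3, 88.4 and 137 CPM in cKO cage libraries. Its log2 fold change was -0.67 ± 0.21 in cKO (adjusted p = 0.218) and -0.03 ± 0.21 in WT (adjusted p = 0.98). In cKO males alone, the values for running were -1.06 ± 0.35 for Pdha1, -0.76 ± 0.28 for Pdhb, -1.05 ± 0.29 for Dlat and -0.75 ± 0.30 for Pdhx. In cKO females alone they were -0.44 ± 0.26, -0.16 ± 0.25, -0.25 ± 0.26 and -0.13 ± 0.20 in the same order, and none was called in either sex.

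Pdhb, the E1 beta subunit, ranged from 47.0 to 98.9 CPM in cKO running and from 87.8 to 167 CPM in cKO cage libraries. Its log2 fold change was -0.47 ± 0.20 in cKO (adjusted p = 0.303) and 0.23 ± 0.19 in WT (adjusted p = 0.741). Pdhx, the protein that anchors the E3 enzyme to the core, ranged from 23.7 to 44.2 CPM in cKO running and from 36.3 to 69.7 CPM in cKO cage libraries. Its log2 fold change was -0.46 ± 0.20 in cKO (adjusted p = 0.305) and -0.15 ± 0.19 in WT (adjusted p = 0.859). The interaction values were -0.63 ± 0.32 for Pdha1, -0.71 ± 0.28 for Pdhb, -0.64 ± 0.30 for Dlat and -0.31 ± 0.27 for Pdhx, and the adjusted p was 0.672 for the first 3 of them and 0.742 for Pdhx. The testis isoform Pdha2 had a count in 3 of 25 libraries, 13 at most.

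**Figure D4:**
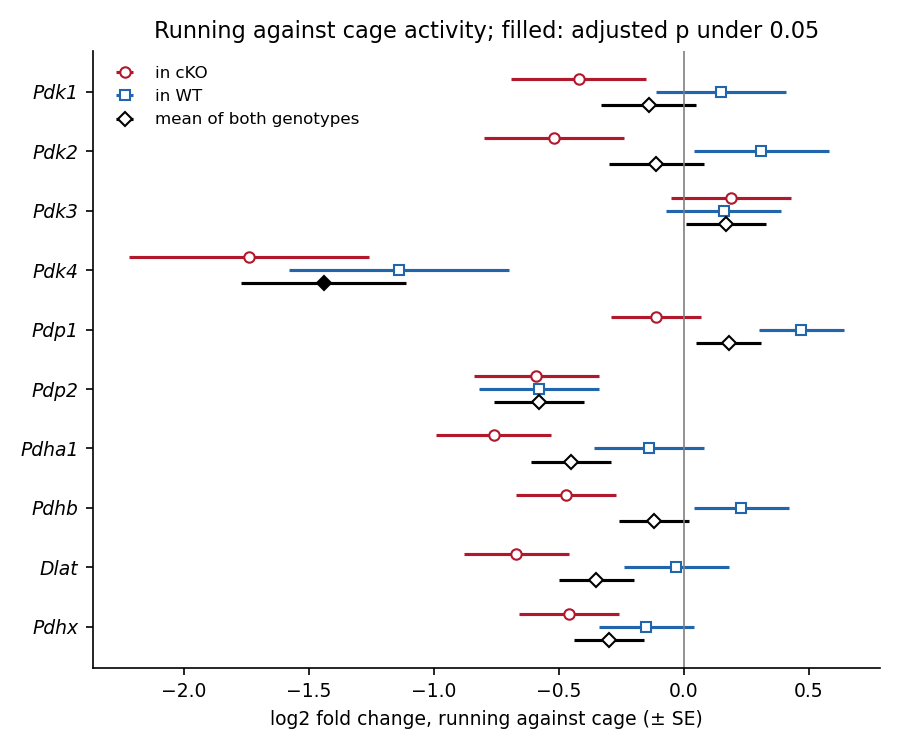
Log2 fold change of running against cage for each of the 10 genes, in cKO, in WT and as the mean of both genotypes; bars are standard errors, and a filled symbol has an adjusted p under 0.05. The filled symbol is Pdk4 in the mean of both genotypes, at -1.44.

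Across the 10 genes, running against cage was negative for 9 in cKO, with a median of -0.50, where 46.1% of all genes were negative. It was negative for 5 in WT, with a median of 0.06, where 49.6% of all genes were negative. As the mean of both genotypes it was negative for 8, with a median of -0.22, beside a median of 0.01 over all genes.

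None of the 10 genes passed the test for genotype. At cage activity 0 of 10 were called between cKO and WT, as were 0% of all genes. None of the 10 had an unadjusted p under 0.05, where 217 of the 19155 genes did. The values ran from -0.01 ± 0.44 for Pdk4 to 0.29 ± 0.18 for Pdp1, with a median of 0.13. In runners, 8 of 10 were negative, with a median of -0.48, and 0 were called, as were 0% of all genes. Over all genes, 48.7% were negative there, with a median of 0.01. In that comparison 2173 of the 19155 genes had an unadjusted p under 0.05, among them 3 of the 10 members. They were Pdk2 (-0.60 ± 0.28, adjusted p = 0.431), Pdhb (-0.51 ± 0.20, adjusted p = 0.398) and Dlat (-0.54 ± 0.21, adjusted p = 0.4). Pdk4 differed by -0.61 ± 0.46 there (adjusted p = 0.588). Averaged over activity, 0 of 10 were called, and 0.00522% of all genes were called. None of the 10 had an unadjusted p under 0.05, where 724 of the 19155 genes did. DESeq2 and limma-voom called none of the 10 in these 3 comparisons. The comparison of cKO with WT runners, that of running with cage in cKO and the interaction share the cKO running libraries, so their negative values are not independent of each other.

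The muscle share of the libraries is given beside these values, and no difference in it passed the test. Between cKO and WT runners it differed by -1.97 percentage points (exact permutation test, two-sided, p = 0.0584, adjusted over 4 comparisons p = 0.234). It differed by -0.978 points between cKO running and cKO cage libraries (adjusted p = 0.375, the same exact test), and by 1.14 points between WT running and WT cage libraries (adjusted p = 0.375, the same exact test). Between cKO and WT cage libraries it differed by 0.148 points (adjusted p = 0.864, the same exact test). For running in WT, the values of Pdk4, Pdp2 and Pdha1 were negative and not called. With the muscle covariate they were -1.02 ± 0.28, -0.59 ± 0.25 and -0.05 ± 0.12 in that order, and none was called. Beyond this fit, the part of the muscle share in them was not tested. All 25 muscle genes were negative between cKO and WT runners, with medians of -0.72 for the 15 fast fibre genes and -0.55 for the 10 slow fibre genes, and none was called. Of the 8 Schwann cell markers, 7 were positive in that comparison, with a median of 1.5, and of the 8 fat cell markers 8 were positive, with a median of 0.36. None of these was called. With the muscle covariate, the cKO against WT difference in runners was -0.31 for Pdk2, -0.29 for Pdhb, -0.32 for Dlat and -0.24 for Pdk4.

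Across the 25 libraries, 8 of the 10 genes tracked the centred mean log2 CPM of the 25 muscle genes with a positive sign and an adjusted permutation p under 0.05. The share of all genes that do so is not given here, so this count does not set the members apart from other genes. Pearson's r was 0.88 for Pdha1, Pdk2 and Pdhb, 0.86 for Dlat, 0.84 for Pdhx, 0.80 for Pdk1, 0.77 for Pdk4 and 0.55 for Pdp1. Spearman's rho was 0.78, 0.79, 0.76, 0.75, 0.81, 0.68, 0.73 and 0.32 in the same order of genes. The permutation p was 1e-05, the smallest that 100000 resamples can give, for r of all of these but Pdk4 (2e-05) and Pdp1 (0.00421, with 0.114 for rho). Adjusted over the 10 genes, these p were 1.67e-05, 2.86e-05 for Pdk4 and 0.00468 for Pdp1. Pdk3 had a negative r of -0.65 (rho = -0.70, adjusted permutation p = 6e-04). Pdp2 had r = 0.11 (rho = 0.06, adjusted permutation p = 0.611). Without the pair of libraries lowest in muscle share (cKO running male replicate 2 at 1.78% and WT cage female replicate 1 at 2.2%), r was 0.72 for Pdk4, 0.79 for Pdha1, 0.31 for Pdp1 and -0.61 for Pdk3. Within the 12 running libraries r was 0.83 for Pdk4 and 0.88 for Pdha1, and within the 13 cage libraries it was 0.77 and 0.90. In a bulk library, fewer cells of a type and less RNA per cell cannot be told apart.

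**Figure D5:**
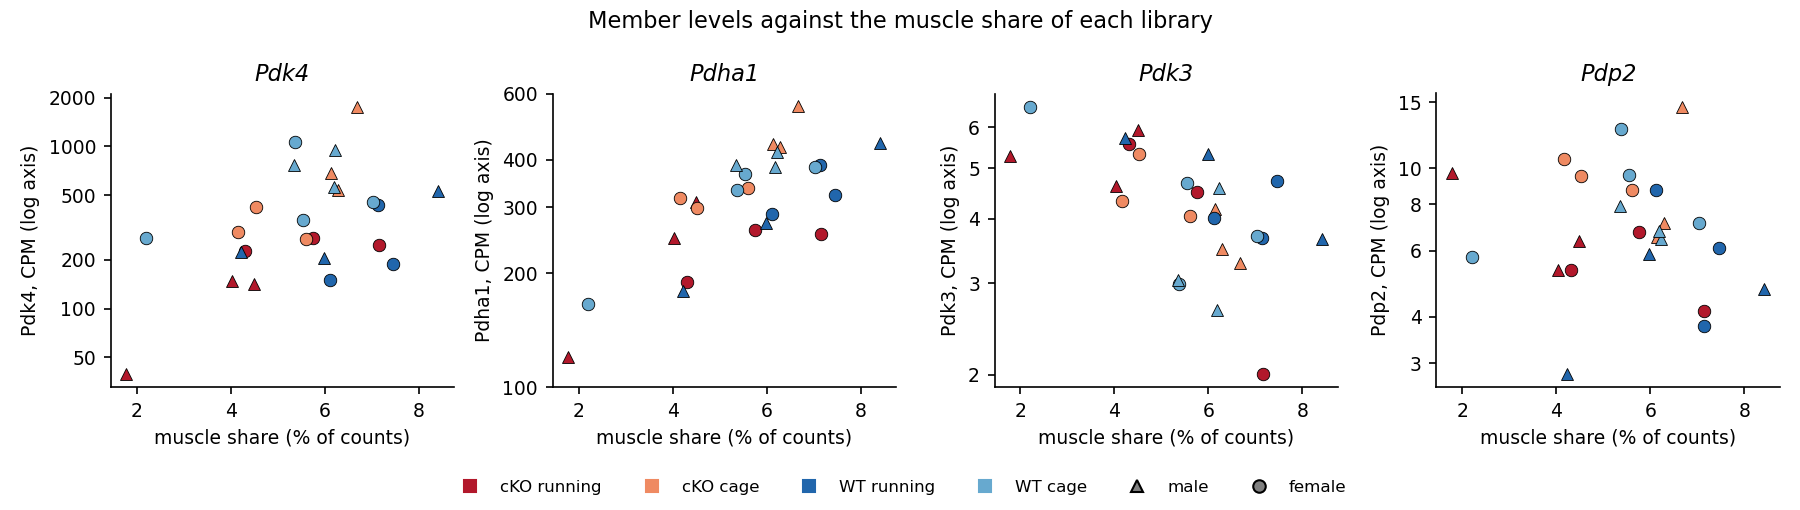
CPM (log axis) of Pdk4, Pdha1, Pdk3 and Pdp2 against the percentage of each library's counts in 25 skeletal muscle genes; colours are genotype and activity, triangles are male and circles are female. Pdk4 and Pdha1 are higher in libraries with more muscle RNA, Pdk3 is lower, and Pdp2 shows no trend.

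Per length, the 10 genes fell into a high, a middle and a low tier. Mean FPKM over the 25 libraries was 128 ± 86.2 for Pdk4, 122 ± 23.6 for Pdha1, 111 ± 17.7 for Pdhb and 86.2 ± 19.7 for Pdk2 (SD, n = 25). Dlat (25.5 ± 6.6), Pdp1 (20.4 ± 4.0), Pdhx (18.4 ± 2.42) and Pdk1 (17.9 ± 4.21) formed the middle tier. Pdk3 (2.69 ± 1.77) and Pdp2 (1.34 ± 0.487) were the scarcest. Pdk2 was above Dlat in 25 of 25 libraries and Pdk1 above Pdk3 in 25 of 25. Within the tiers, Pdhb was above Pdk2 and Pdk3 above Pdp2 in 23 of 25 each. The other neighbours were not separated so clearly. Pdk4 was above Pdha1 in 8 of 25, Pdha1 above Pdhb and Dlat above Pdp1 in 16 of 25 each, and Pdp1 above Pdhx and Pdhx above Pdk1 in 14 of 25 each. The highest Pdk4 library held 44.4 times the CPM of the lowest, where the other members spanned 3.05 to 5.46 times. Pdk2 overlaps the antisense gene Gm11513 and Pdha1 overlaps Map3k15 on the opposite strand, and without a stated strand their reads cannot be told apart. Those neighbours were counted at up to 14 and 69 per library.

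The genes whose log2 CPM followed each member most closely over the 25 libraries are named as a description. For Pdk4 they were Ucp3 (r = 0.90), Hspd1 (0.88) and Decr1 (0.88). Their log2 fold changes for running were -0.68 ± 0.28 (adjusted p = 0.247), -0.48 ± 0.10 (adjusted p = 0.0107) and -0.54 ± 0.10 (adjusted p = 0.00645), so Hspd1 and Decr1 fell. The closest genes were picked by correlation over running and cage libraries together, so these falls are not independent of that of Pdk4. For Pdk2 they were Rpl3l (0.99), Cacna1s and Smarcd3 (0.98 each), and for Pdk1 Clip4 (0.98), Alpk3 and Dyrk1a (0.97 each). For Pdha1 they were Sod2, Mfn1 and Cs (0.98 each). For Pdhb they included E2f6 and Pdk2 (0.97 each), for Dlat Zyg11b, Pdpr and Btbd1 (0.96 each), and for Pdhx Ghitm, Sdha and Nap1l4 (0.94 each). Pdk3 followed Pgrmc1 (0.81), Kcna2 and Pan3 (0.77 each), Pdp1 followed, among others, Uckl1os (0.83) and Eny2 (0.77), and Pdp2 followed Nrk (0.77), Gas2 (0.71) and Rnf168 (0.69). None of the neighbours other than Hspd1 and Decr1 was called for running.

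Among genes around the complex, calls for running averaged over both genotypes were made in the lists of PPAR targets, of pyruvate supply and use and of regulators of kinase genes, where 1.43% of all genes were called. Of 22 PPAR target genes, 18 were negative, with a median of -0.51, and 5 fell while 1 rose. Acot2, which releases free fatty acids from acyl-CoA in mitochondria, stood at -0.93 ± 0.16 (log2, adjusted p = 0.00327). Acaa2, the thiolase that ends a round of mitochondrial beta-oxidation, fell by 0.68 (SE 0.15, adjusted p = 0.0154), and Acadm, the medium-chain acyl-CoA dehydrogenase, fell by 0.59 (SE 0.13, adjusted p = 0.0233). Ucp2, a mitochondrial inner membrane carrier, rose by 0.90 (SE 0.16, adjusted p = 0.00488). Of 13 tested genes of pyruvate supply and use, 9 were negative and 1 fell. That gene was Slc16a1, the lactate and pyruvate carrier MCT1 (-0.59 ± 0.13, adjusted p = 0.0233). Of 14 tested regulators of kinase genes, 12 were negative and 1 fell. It was Ppargc1a, a coactivator of mitochondrial gene expression (-0.95 ± 0.19, adjusted p = 0.00988). Ppara, the fatty acid receptor, was at -0.84 ± 0.22 (adjusted p = 0.0548).

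The remaining lists held no call for running averaged over both genotypes, apart from Cilp, a cartilage matrix protein on the list of 14 tendon cell markers, which rose by 0.70 (SE 0.15, adjusted p = 0.0142). All 15 genes of the citric acid cycle were negative, with a median of -0.30, and 0 were called. Of 9 partners of the complex 6 were negative (median -0.11). Of 9 genes of the sister complexes for 2-oxoglutarate and branched-chain ketoacids 8 were negative (median -0.26). The FoxO targets were negative for 10 of 12 (median -0.23) and the HIF targets for 7 of 12 (median -0.09). The 25 muscle genes had medians of -0.12 in both fibre lists in the same comparison, and all 10 macrophage markers were positive, with a median of 0.52. All 8 Schwann cell markers were positive as well, with a median of 0.84, and of 1.67 for running in cKO. Their part in these values was not tested.

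Between male and female tendons, edgeR called 0 of the 10 genes and 0.616% of all genes. DESeq2 called 0 of the 10 and 251 of the 19155 genes, and limma-voom called 442 of them. At an unadjusted p under 0.05 there was 1 member, beside 1932 of the 19155 genes. This was Dlat (0.33 ± 0.15, adjusted p = 0.45), which limma-voom called higher in males (0.40 ± 0.10, adjusted p = 0.0363). Dlat averaged 88.7 ± 28.5 CPM in male and 69.4 ± 17.3 CPM in female libraries (SD, n = 12 and 13). Among the regulators, Foxo3, a FoxO transcription factor, was lower in males (-0.38 ± 0.06, adjusted p = 0.000886). Of the FoxO targets, Sesn1 was lower in males (-0.50 ± 0.09, adjusted p = 0.0025) and Fkbp5 higher (1.00 ± 0.20, adjusted p = 0.00901). For the sex-by-genotype interaction 0 of 10 were called, as were 0% of all genes. None of the 10 had an unadjusted p under 0.05, where 795 of the 19155 genes did. DESeq2 and limma-voom also called none of the 10.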

How the data were processed

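RNA of 25 Achilles tendon libraries was analysed. The authors deposited expected counts and FPKM, one table each. The tools named in the submitters' processing notes are RSEM 1.3.3, STAR 2.7.8a, FastQC 0.11.8 and cutadapt 2.3, and the genome is GRCm38 (mm10). The strand is not stated. The deposited expected counts held whole numbers, so rounding changed none. The deposited FPKM served levels per length and an alternative. In R 4.3.3, counts were filtered by filterByExpr, scaled by TMM and tested with edgeR 4.0.16 (quasi-likelihood F-test, 4 group means plus sex, or 8 group means for interactions with sex), two-sided, adjusted by Benjamini-Hochberg over 19155 genes in each of 10 comparisons and called under 0.05. CPM carry the TMM scaling. Alternatives used DESeq2 1.42.0, limma 3.58.1 and other fits. The tests were tested on simulated data. The members and gene lists were chosen with earlier results of these data known. Named were the 10 members, Prkaa1, up to 4 called genes of each list by smallest p, and the 3 genes most correlated with each member. For Pdhb and Pdp1, 1 of these is not reported here. Gene positions are from GENCODE M21, in which 55141 of 55487 identifiers were found. Totals per library set the counting precision, with a median of 24538109.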

Additional observations from a re-analysis of the deposited data

Results flagged for a closer look

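In 44 groups of 6 or 7 libraries, 7 held a library farther from its nearest neighbour than Dixon's 95% limit allows, where chance gives about 1 in 20 independent groups. These groups are not independent, because they reuse the same libraries and most members correlate with each other, so the 2 rates cannot be compared directly. Pdk4 stood at 1756 CPM in cKO cage male replicate 2, and the nearest library of that group held 688 CPM. Pdk3 stood at 2.01 CPM in cKO running female replicate 3, against 4.5 CPM in the nearest library. Pdk1 stood at 64.3 CPM in WT running male replicate 3, one of the pair that stands apart, against 93.6 CPM in the nearest. WT cage female replicate 1 was beyond the limit in 4 measures, as the lowest of its 7 libraries in each. It held 61.1 CPM of Pdk2 (nearest 152), 166 CPM of Pdha1 (nearest 333) and 52.8 CPM of Pdhb (nearest 99.8), and its muscle share was 2.2% (nearest 5.35%). Within the limit, it was also lowest in Pdk1 (30.3 CPM), Pdk4 (272), Pdp1 (24.8), Pdp2 (5.78), Dlat (39.5) and Pdhx (34.5). For Pdk3 it was the highest, at 6.57 CPM. Without cKO cage male replicate 2, the Pdk4 log2 fold change for running was -1.20 ± 0.29 (adjusted p = 0.0455), and without WT cage female replicate 1 it was -1.52 ± 0.32 (adjusted p = 0.0114).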

How the results depend on the processing

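The Pdk4 fold change for running was negative in all 47 fits and called in 16 of 21 alternatives other than single omissions. Of the 10 members, the number called for running (mean of both genotypes) was 3 without a filter, 2 by DESeq2 and 3 by limma-voom. In fits added after the data had been seen, it was 2 with muscle and mitochondrial rRNA covariates together (Pdk4 lower, Pdp1 higher in runners). That fit called 304 of all genes. The number was also 2 without the pair lowest in muscle share (Pdk4 and Pdp2, both lower), where 440 of all genes were called. It was 0 with limma on log2(FPKM + 1) without a filter, with the mitochondrial rRNA or the eGFP covariate, without the pair of libraries that stand apart and in females alone. Leaving out single libraries gave 0 to 3. It was 0 without WT cage female replicate 2 or WT running male replicate 2, 2 without cKO running male replicate 2 (Pdk4 and Pdp2) and 3 without WT cage female replicate 1 (Pdk4, Pdp2 and Pdha1). For running in WT it was 1 without a filter, 1 with the muscle covariate and 1 with both covariates. For running in cKO it was 3 without a filter, 2 by DESeq2 and 3 by limma-voom. For male against female it was 1 by limma-voom, and for the sex-by-running interaction 2 without a filter. The cause of these changes was not tested. No called value changed sign. Of member values larger than their standard error, the sign turned for Pdk4 between cKO and WT runners with the eGFP covariate (0.00), Pdp2 between cKO and WT in females alone (-0.03), Pdk1 for running in cKO in females alone (0.12), Pdk3 for running in females alone (-0.14) and Pdhb between males and females with the mitochondrial rRNA covariate (-0.02). Counting values within their standard error too, the sign turned in 254 of 4570 member values under alternatives. In females alone 16 such small values turned, among them the Pdk4 genotype-by-running interaction (0.64) and Pdk2 for running as the mean of both genotypes (0.24). Of the member values under alternatives, 4360 kept their call and moved by no more than their standard error, 174 moved by more, 24 became called and 7 lost a call. Over all genes, calls for running (mean of both genotypes) numbered 273, and 8 to 912 under alternatives. For running in WT they numbered 25 (1 to 332), in cKO 8 (0 to 574), for male against female 118 (29 to 445) and for cKO against WT averaged over activity 1 (0 to 91). Where none was called, the most under any alternative was 4 between cKO and WT cage libraries, 282 between cKO and WT runners, 65 for the genotype-by-running interaction, 111 for sex-by-genotype and 887 for sex-by-running, each without a filter. Replicate numbers did not pair the libraries: the deviations of 34 same-numbered pairs had r from -0.20 to 0.21, 4 of them over 0.1. With the replicate block, Pdk4 stood at -1.53 (adjusted p = 0.0323), the number of members called was as without it in each comparison that could be fitted, and 148 genes were called for running (mean of both genotypes). Of 25 libraries, 4 correlated best with their own number. Pdk3 and Pdp2 rest on the fewest counts, 47 and 55 in their lowest library. Fits of only the groups compared exist for 4 comparisons, and the fit without eGFP libraries leaves no cKO runner.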
